A study of Papio anubis and Macaca mulatta with 6 samples.

Results

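The genes described here write, copy, read and remove DNA methylation: the DNA methyltransferases DNMT1, DNMT3A and DNMT3B, their cofactor DNMT3L, the DNMT1 partner UHRF1 and the dioxygenases TET1, TET2 and TET3. They were taken by name as a family, with earlier results of these data known, and looked up by symbol in each species. All 8 were listed among 34178 genes in the baboon and 7 among 21356 genes in the rhesus monkey, where DNMT3L was not found by symbol and was not analysed here.

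Germ cells of the immature testis carry the methylation pattern that the adult male hands on. DNMT3A and DNMT3B place new methyl groups, and the catalytically inactive DNMT3L helps them; in mice this happens before birth in male germ cells that do not divide, partly guided at transposons by small piRNAs bound to PIWIL4. DNMT1 copies methylation onto the new strand after replication and is brought there by UHRF1, which reads hemimethylated DNA. The TET enzymes oxidize 5-methylcytosine, which can lead to its removal.

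RNA was counted cell by cell in testes taken at necropsy from 2 untreated baboons and 2 untreated rhesus monkeys, and the 6 libraries were made with the 10x Genomics 3′ assay, which counts unique molecular identifiers (UMIs) per gene and cell. Baboon animal 1 had libraries A and B, and baboon animal 2 had 1 library. Rhesus animal 1 had 1 library, and rhesus animal 2 had libraries A and B. The chemistry was version 3 for baboon animal 2 and version 2 for the other animals, so that in the baboon chemistry and animal cannot be told apart. The deposit gives ages of 15 and 20 months for the baboons and of newborn and 26 months for the rhesus monkeys. The methods of the study give each of these pairs to the other species, and no age could be tied to an animal. Interstitial cells were partly washed away during dissociation, which limits what the stroma and Leydig cell numbers show.

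The libraries held 16875294 to 49803025 UMIs, and 20522 baboon and 21703 rhesus cells had at least 1000 UMIs, with medians of 1615 to 3106 UMIs per library. Libraries of a species shared 1 to 87 cell barcodes. Levels are given as CPM, the UMIs of a gene in the summed counts of a class of cells, scaled to the same total for all classes. Each species was tested alone over the sums of its 2 animals. The p-values rest on the spread between these animals, which the test estimates in part from all genes together. Differences are log2 fold changes with standard errors (SE) from the quasi-likelihood test of edgeR, with adjusted p-values over all genes tested.

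A germ cell was defined as a cell with at least 1000 UMIs and at least 2 of the 6 transcripts DAZL, MAEL, TDRD1, TEX15, SMC1B and MAGEB2. MAGEB2 was not found by symbol in the rhesus monkey. The rule found 626 baboon cells (209 and 417 in animals 1 and 2) and 104 rhesus cells (81 and 23). In the baboon, the data went against this label for most of these cells. Only 169 of the 626 lay in the cluster that carried the germ cell markers, while 451 lay in Sertoli-like clusters, and 381 had DAZL and TEX15 as their only rule transcripts. TEX15 was detected in 15.9% and DAZL in 5.87% of Sertoli-like cells. DDX4, a germ cell helicase outside the rule, was found in 73.4% of the rule cells in the germ-like cluster, in 3.28% of those elsewhere and in 0.621% of Sertoli-like cells. The 8 Sertoli markers, all of them detected, made up 0.0919% of the UMIs of the rule cells in the germ-like cluster, 0.896% of those elsewhere and 0.868% in Sertoli-like cells. The rule cells were also deep, with a median of 12917.5 UMIs against 2192.5 in all other cells. The 104 rhesus rule cells had a median of 6949 UMIs against 1661 in all other cells, and 88 of them were germ-like. The germ-like clusters also held 53 baboon and 259 rhesus cells with fewer than 2 rule transcripts. These counted among the other cells. Values are therefore given for the rule and, in the baboon, also for its cells in the germ-like cluster. The 8 genes and the rule genes were left out of the clustering.

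**Figure D1:**
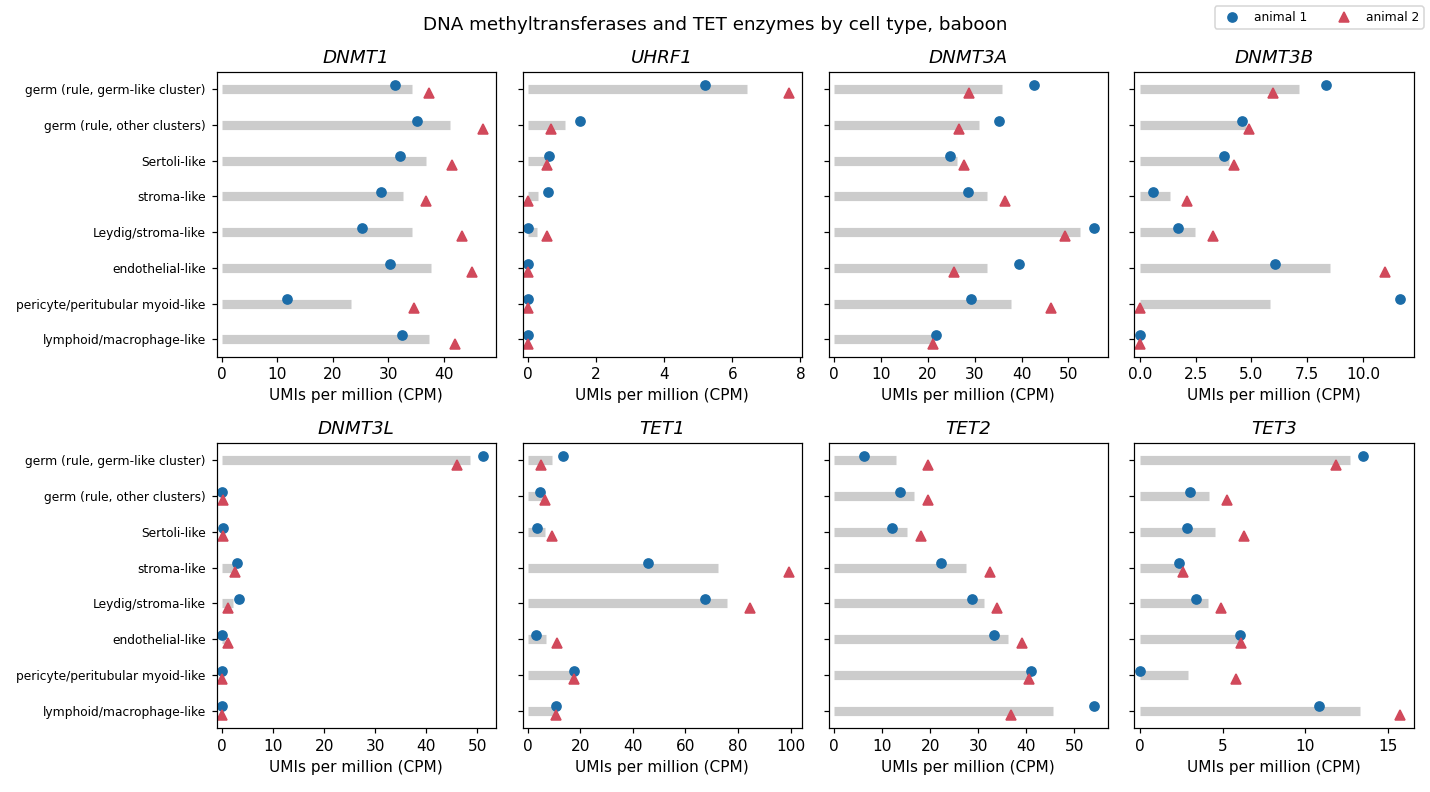
Level of each of the 8 genes in the baboon (x axis, CPM) in each class of cells (y axis). Points are the 2 animals and grey bars their mean. DNMT3L stands at 51.0 and 45.9 CPM in the germ-like rule cells and at 3.37 or lower in the other classes drawn, while TET1 stands highest in the stroma-like and Leydig/stroma-like cells.

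DNMT3L was much higher in baboon germ cells than in the rest of the testis. By the RefSeq annotation, the source of all coordinates given here, it lies at 4:179604476-179618385 of the baboon genome (Panubis1.0), and 143 of its UMIs were counted in 76 cells. The germ-like rule cells held 30, 19 and 54 UMIs in libraries A and B of animal 1 and in animal 2, or 46.7, 59.6 and 45.9 CPM. All cells outside the rule held 0.484, 0.573 and 0.613 CPM in the same order. The 3 libraries of germ-like cells lay within a narrow range, and each was far above every library of the remaining cells. Rule cells outside the germ-like cluster had 2 UMIs in all, both in animal 2 (0.265 CPM).

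Taken over all 626 rule cells, DNMT3L stood at 28.0, 34.8 and 6.42 CPM, the low value belonging to animal 2, where most rule cells lay in Sertoli-like clusters. It rose by 4.63 on the log2 scale (SE 0.86, adjusted p = 0.0322 in edgeR, higher in 2 of 2 animals). None of the other 7 members passed. Of 17088 genes tested, 3.16% passed, 455 higher and 85 lower, with a median log2 fold change of -0.10. With the animal as a block, 1716 of all genes passed in place of 540. The call on DNMT3L was lost without library A of animal 1 (4.65, adjusted p = 0.0662) and without library B of animal 1 (4.54, adjusted p = 0.0545). It was kept with the block, DESeq2, libraries as samples, no filter, 2000 UMIs per cell, no marked doublets and 3 germ markers. Restricted to the rule cells in the germ-like cluster, chosen in part by clustering, the difference was 5.84 (SE 0.42, adjusted p = 0.000548 in edgeR). Far more genes passed in that fit.

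DNMT3L was detected in 21.9% of the germ-like rule cells (37 of 169, exact 95% interval 15.9 to 28.9%, counting error only), against 0.0776% of Sertoli-like cells (12 of 15457), the type taken as background. Their median depths were 12321 and 2360 UMIs. After every cell was thinned to 1000 UMIs the shares were 2.37% and 0.0259%. The germ-like cluster as a whole, 222 cells or 1.08% of the baboon cells, held 109 of the 143 UMIs (76.2%), 6 of them in its 53 cells with fewer than 2 rule transcripts (29.2 and 62.1 CPM in animals 1 and 2). Free RNA, taken from barcodes without cells, held 4 UMIs of DNMT3L among 1651577 in library A of animal 1 (2.42 CPM). It held 0 among 180583 in library B of animal 1 and 0 among 277023 in animal 2, totals too small to show such a level.

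The remaining signal was not spread evenly. Stroma-like cells, the collagen-producing interstitial cells, stood at 2.92 and 2.63 CPM in animals 1 and 2, and Sertoli-like cells at 0.270 and 0.146 CPM. Both animals thus had the higher value in the stroma-like cells. The 15 stroma-like UMIs lay in 15 of 2877 cells (0.521%, median depth 1672 UMIs). DDX4 was detected in 0.209% of stroma-like cells and 0.621% of Sertoli-like cells, the deeper type. DNMT3L in the free RNA of library A of animal 1, at 2.42 CPM, was near the stroma-like level. The source of the stroma-like UMIs was not tested.

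Within baboon germ cells, DNMT3L went with PIWIL4, which carries piRNAs in the nucleus, and DIRAS3, a small GTPase. The rule cells were divided by 4 spermatogonial transcripts: 54 had PIWIL4 or DIRAS3 and neither NANOS3 nor L1TD1, 99 had NANOS3 or L1TD1 and neither of the first pair, 33 had both kinds and 440 had none. In the PIWIL4 or DIRAS3 cells DNMT3L had 23, 14 and 46 UMIs in the 3 libraries, or 144, 128 and 73.1 CPM. The NANOS3 or L1TD1 cells had 2, 2 and 3 UMIs, or 7.21, 10.7 and 2.76 CPM. The libraries of the states did not overlap, and the ratio was 16.0 in animal 1 and 26.5 in animal 2. Cells with both kinds of transcript had 30.4, 134 and 11.8 CPM, above the NANOS3 or L1TD1 cells in each library and above the PIWIL4 or DIRAS3 cells in library B of animal 1 alone. DNMT3L was detected in 44.4% (24 of 54) and 7.07% (7 of 99) of the cells of the 2 states, at like median depths of 13732 and 13360 UMIs.

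In edgeR the difference between the states was 4.29 on the log2 scale (SE 0.78, unadjusted p = 0.00138) but did not pass after adjustment over 8237 genes (adjusted p = 1.000, higher in 2 of 2 animals). In that comparison 0% of the genes passed, with 225 at an unadjusted p under 0.05 and 5 called by DESeq2, and 3 of the 8 members had enough UMIs to be tested (DNMT1, DNMT3A and DNMT3L). DNMT3L was among the genes called by DESeq2 (adjusted p = 0.0174) and by edgeR with the animal as a block (adjusted p = 0.00151), which called 186 genes. In these fits DNMT3L met the filter on low counts through the PIWIL4 or DIRAS3 sums alone, where it was high. These calls are therefore no independent support, and the same limit holds for the germ-like fit below. Sertoli markers made up 0.0673% and 0.382% of the UMIs of the PIWIL4 or DIRAS3 cells of animals 1 and 2, and 0.0638% and 0.700% of those of the NANOS3 or L1TD1 cells. Restricted to the germ-like cluster, an alternative chosen after the data had been seen, the PIWIL4 or DIRAS3 cells (48) had 144, 128 and 127 CPM and the NANOS3 or L1TD1 cells (69) had 7.31, 10.7 and 5.64 CPM. The libraries of each state then lay close together and far from the other state, and the difference in DNMT3L was 4.18 (adjusted p = 0.0883 in edgeR). The rhesus states held 12 and 39 cells, with fewer than 10 in a sum of an animal, and were not tested.

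**Figure D2:**
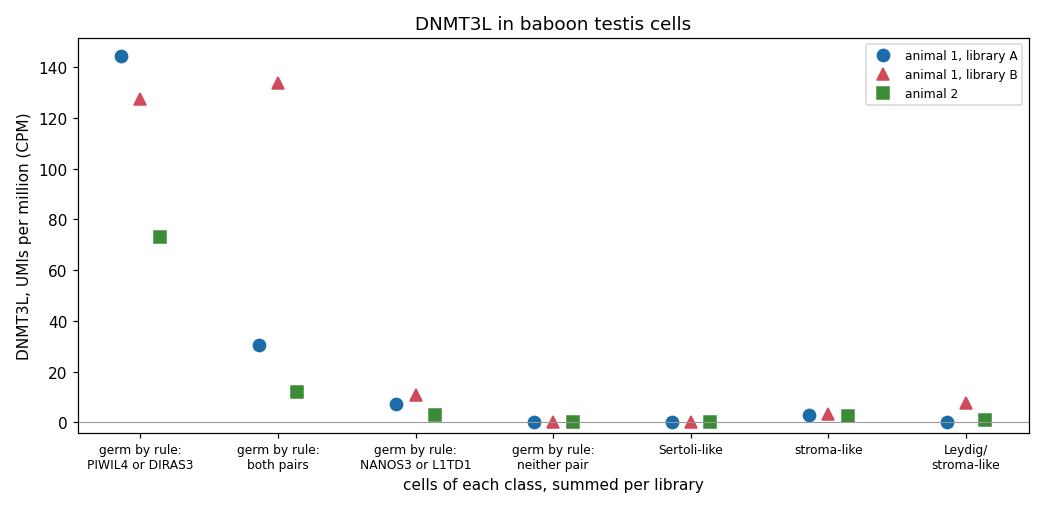
DNMT3L in the baboon by library (y axis, CPM) in classes of germ cells and somatic cells (x axis). Each point is 1 library. The PIWIL4 or DIRAS3 cells lie between 73.1 and 144 CPM and the NANOS3 or L1TD1 cells between 2.76 and 10.7 CPM.

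Of the catalytic partners of DNMT3L, DNMT3A did not share its pattern, and DNMT3B had too few UMIs to tell. DNMT3A (14:24897384-25012165 in the baboon, 13:83632251-83747543 of the rhesus genome, Mmul_10) was counted in every named baboon cell type, from 21.04 to 55.6 CPM per animal. Free RNA of the 3 baboon libraries held 20.0, 116 and 21.7 CPM of it, the second from 21 UMIs. These values are shares of the free RNA, not amounts per cell. How much of the DNMT3A counts of a type came from free RNA was not tested. Baboon rule cells had 43.0, 32.9 and 26.9 CPM in the 3 libraries and other cells 24.8, 27.7 and 29.9 CPM. These ranges overlapped, and the difference was -0.05 (SE 0.37, adjusted p = 0.985 in edgeR). Most of these rule cells lay outside the germ-like cluster. Restricted to the rule cells within it, the difference was -0.21 (SE 0.33, adjusted p = 0.645 in edgeR). In CPM both germ cell states described below stood above every library of other cells. The edgeR differences differ from CPM in that the sums are rescaled by TMM factors. Its level was highest in the Leydig/stroma-like cluster, led by the Leydig hormone INSL3, with 55.6 and 49.3 CPM in the 2 animals against 24.7 and 27.7 in Sertoli-like cells, a ratio of 2.25 and 1.78.

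The 2 states of baboon germ cells had close DNMT3A levels (-0.03, SE 0.55, adjusted p = 1.000 in edgeR), with 48.3 and 35.0 CPM in the PIWIL4 or DIRAS3 cells and 49.6 and 34.0 CPM in the NANOS3 or L1TD1 cells of animals 1 and 2. The rhesus animals stood apart in DNMT3A, with 7.28 CPM in the other cells of animal 1 and 24.6 and 21.4 CPM in the libraries of animal 2. The rule cells followed the same order, with 3.03, 18.8 and 15.2 CPM from 2, 5 and 2 UMIs, and the difference between germ and other cells was -1.14 (SE 0.82, adjusted p = 0.348 in edgeR).

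DNMT3B, the second enzyme that places new methylation (16:59879518-59927811 in the baboon, 10:67997485-68046324 in the rhesus monkey), was sparse. Its 314 baboon UMIs lay mostly in Sertoli-like cells (3.79 and 4.24 CPM), which were also most of the baboon cells. Endothelial-like cells had 6.07 and 10.99 CPM. The germ-like rule cells had 6, 2 and 7 UMIs, or 9.34, 6.28 and 5.95 CPM. The difference over all rule cells was 0.31 (SE 0.64, adjusted p = 0.945 in edgeR). The PIWIL4 or DIRAS3 cells had 10 UMIs (22.3 and 6.36 CPM in animals 1 and 2) and the NANOS3 or L1TD1 cells 2 UMIs (2.15 and 0.919 CPM), too few to pass the filter on low counts. Without that filter the difference was 2.95 (SE 1.32) and did not pass (adjusted p = 0.962 in edgeR). Rhesus cells had 13 UMIs among 21703 cells and 0 in germ cells, where the floor of 3 counts is 2.84 CPM.

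**Figure D3:**
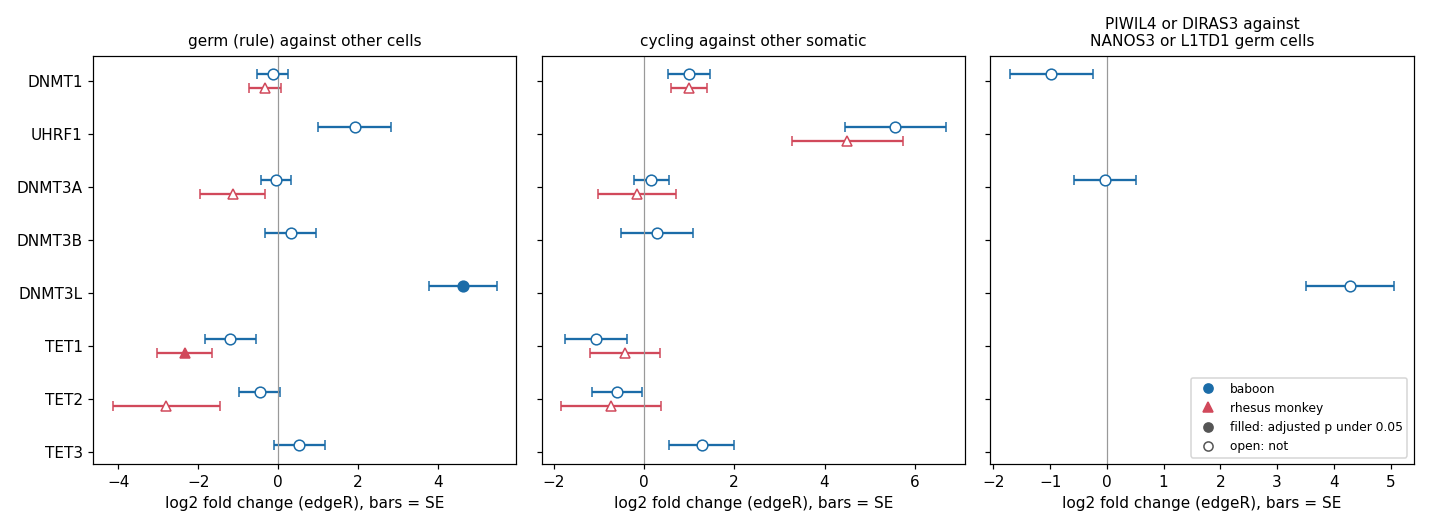
Log2 fold changes of the members in 3 comparisons (x axis, with SE as bars) for the baboon (circles) and the rhesus monkey (triangles). Filled symbols passed an adjusted p of 0.05 in edgeR. Filled are DNMT3L in baboon germ cells at 4.63 and TET1 in rhesus germ cells at -2.34.

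DNMT1, the maintenance enzyme (20:41674711-41736393 in the baboon, 19:9879879-9942528 in the rhesus monkey), was counted in every named cell type, and no difference between germ and other cells passed the test. Free RNA held 30.9, 11.1 and 25.3 CPM of DNMT1 in the baboon libraries and 18.5, 42.2 and 34.9 CPM in the rhesus libraries. These shares were about the level in cells. How much of the DNMT1 counts of a type came from free RNA was not tested. The germ-like rule cells of the baboon had 38.9, 15.7 and 37.4 CPM and the other cells 30.5, 33.3 and 41.3 CPM. Of the germ-like libraries 2 lay within the range of the others and library B of animal 1 lay below it. All rule cells of the baboon had 32.8 and 45.7 CPM in animals 1 and 2 against 31.5 and 41.3 CPM in the other cells. In CPM both animals were thus slightly higher in rule cells, while edgeR, which rescales the sums by its TMM factors, gave a difference of the opposite sign. That difference was -0.14 (SE 0.39, adjusted p = 0.960 in edgeR) in the baboon and -0.34 (SE 0.39, adjusted p = 0.578) in the rhesus monkey. Restricted to the rule cells in the germ-like cluster, the baboon difference was -0.64 (SE 0.31, adjusted p = 0.147 in edgeR). Rhesus rule cells had 28.7, 33.9 and 15.2 CPM and other cells 20.7, 30.1 and 32.6 CPM, which also overlapped. Leydig-like cells of the rhesus monkey had the lowest level of the large classes, 12.04 and 6.24 CPM in animals 1 and 2, where stroma-like cells had 24.2 and 30.7 CPM.

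Dividing somatic cells were compared with the rest because DNMT1 and UHRF1 act at replication. A somatic cell was called cycling when it had at least 2 of 10 transcripts of the cell cycle (MKI67, TOP2A, CDK1, BIRC5, TYMS, RRM2, CENPF, NUSAP1, TK1 and PCLAF). There were 156 such cells in the baboon, 127 of them Sertoli-like, and 205 in the rhesus monkey, 114 of them stroma-like. They were deeper than the average cell, with medians of 7121.5 and 2853 UMIs. Somatic here means outside the germ cell rule, so cells of the germ-like cluster with fewer than 2 rule transcripts were not left out. Germ cell markers made up 0.0162% and 0.00898% of UMIs in cycling baboon cells of animals 1 and 2. Other somatic cells had 0.00854% and 0.00748%. In the rhesus monkey the shares were 0.0451% and 0.0137% against 0.00512% and 0.00277%. Lymphoid markers made up 0.0224% and 0.00291% in cycling baboon cells of animals 1 and 2, against 0.00192% and 0.00293% in other somatic cells. In the rhesus monkey their shares were 0.127% and 0.00627% against 0.0119% and 0.00260%. What germ cells and the mix of cell types added to the differences was not tested.

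UHRF1 (20:46578492-46632484 in the baboon, 19:4841449-4898337 in the rhesus monkey) had its largest differences in this comparison. Cycling baboon cells had 3, 5 and 9 UMIs, or 23.3, 50.3 and 5.57 CPM. The other somatic cells had 5, 6 and 7 UMIs among far more cells, or 0.243, 0.495 and 0.215 CPM. Every cycling library lay above every other library, although animal 2 stood well under animal 1. Within Sertoli-like cells alone the values were 39.0 and 5.36 CPM in the cycling cells of animals 1 and 2 against 0.340 and 0.271 CPM in those not cycling.

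The difference in UHRF1 was 5.57 (SE 1.11) in the baboon and did not pass (adjusted p = 0.100 in edgeR, higher in 2 of 2 animals). With the animal as a block it did (adjusted p = 7.2e-06), as it did with DESeq2 (adjusted p = 2.1e-06). The rhesus difference rested on 5 UMIs, with 11.1, 0 and 10.9 CPM in cycling cells against 0.201, 0.0822 and 0.531 CPM. Library A of rhesus animal 2 had none, so that the libraries overlapped, and the fold change of 4.50 (SE 1.23, adjusted p = 0.311 in edgeR) passed only with DESeq2 (adjusted p = 0.0278). In both species UHRF1 met the filter on low counts through the cycling sums alone, where it was high. The calls under that filter are therefore no independent support. None of the 7 baboon and 5 rhesus members tested between cycling and other somatic cells passed, where 0.306% of 15355 and 0.748% of 12436 genes did, and 456 and 1015 genes had an unadjusted p under 0.05. The medians over all genes were -0.10 and -0.09. The block raised the calls from 47 to 327 in the baboon and from 93 to 629 in the rhesus monkey.

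DNMT1 was higher in cycling cells of both species without passing the test. Cycling baboon cells had 109, 191 and 44.6 CPM against 29.996, 32.0 and 41.1 CPM. Both libraries of animal 1 stood well above the other cells, and animal 2 hardly did. In the rhesus monkey the 3 libraries had 61.2, 60.2 and 61.9 CPM against 20.3, 29.3 and 31.8 CPM, and no library of cycling cells overlapped the rest. The difference was 1.00 in each species (SE 0.46 for the baboon and 0.39 for the rhesus monkey), with adjusted p-values of 1.000 and 0.579 in edgeR. The de novo and TET members differed by -1.06 to 1.28 between cycling and other baboon cells and by -0.73 to -0.15 in the rhesus monkey.

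**Figure D4:**
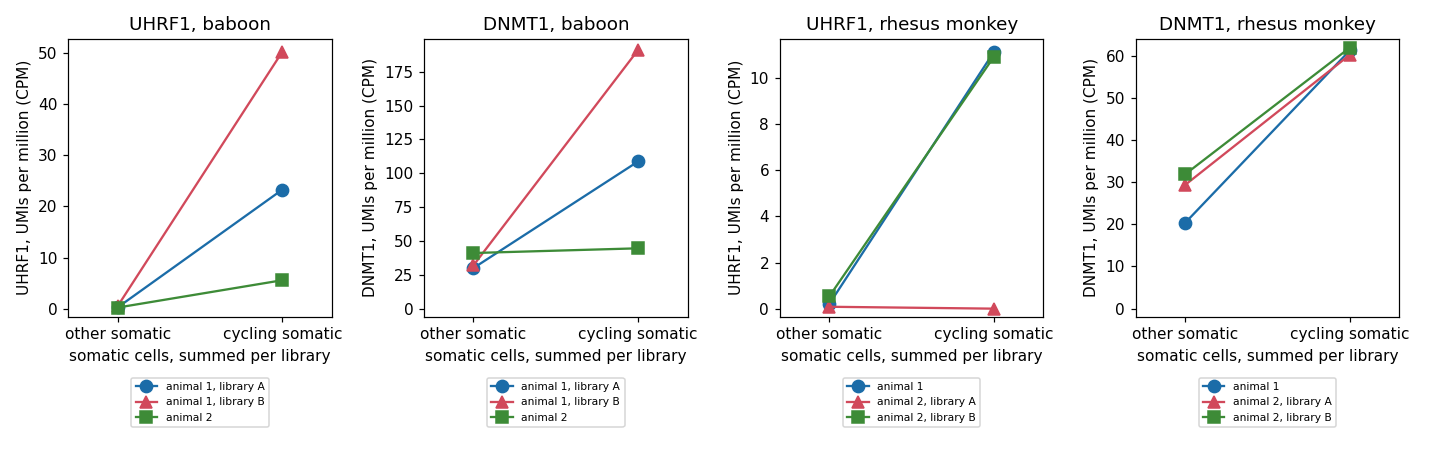
UHRF1 and DNMT1 (y axes, CPM) in other and in cycling somatic cells (x axes) of each library, joined by lines. In the rhesus monkey DNMT1 of the 3 libraries meets between 60.2 and 61.9 CPM in cycling cells, while in the baboon the line of animal 2 is nearly flat (41.1 to 44.6 CPM).

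In germ cells UHRF1 was near the limit of detection. The germ-like rule cells of the baboon had 2, 3 and 9 UMIs, or 3.11, 9.41 and 7.65 CPM, and Sertoli-like cells had 0.608 and 0.548 CPM in animals 1 and 2. It was detected in 7.69% of the germ-like rule cells and in 0.207% of Sertoli-like cells, at median depths of 12321 and 2360 UMIs. Over all rule cells the difference was 1.91 (SE 0.91, adjusted p = 0.472 in edgeR). Restricted to the rule cells in the germ-like cluster, which were thus chosen in part by clustering, it was 3.04 (adjusted p = 0.0175 in edgeR), in a fit where 6098 genes passed in place of 540. In that fit UHRF1 met the filter on low counts through the germ-like sums alone, where it was high, so the call is no independent support. Rhesus germ cells had 1 UMI.

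TET1 (11:64804687-64946766 in the baboon, 9:69214614-69353070 in the rhesus monkey) had its high level in the interstitium. Stroma-like cells of the baboon had 42.1, 51.8 and 99.2 CPM, and Leydig/stroma-like cells 79.9, 50.8 and 84.4 CPM. Sertoli-like cells had 3.43, 3.93 and 9.28 CPM. No library of the interstitial classes overlapped the Sertoli-like ones. The ratio of stroma-like to Sertoli-like cells was 12.6 in animal 1 and 10.7 in animal 2, although animal 2 had the higher level in both types. Free RNA held 5.45, 0 and 7.22 CPM, about the level in the Sertoli-like cells.

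The rhesus monkey had the same order. Stroma-like cells stood at 23.9, 37.6 and 42.9 CPM and Sertoli-like cells at 1.33, 4.19 and 2.47 CPM, a ratio of 18.0 in animal 1 and 11.97 in animal 2. Pericyte-like cells, which wrap small vessels, had 33.6 and 20.9 CPM in animals 1 and 2, within the range of the stroma-like libraries or just under it, and Leydig-like cells 6.42 and 12.5 CPM. In the baboon 58.8% of the TET1 UMIs lay in the stroma-like and Leydig/stroma-like cells, 18.9% of all cells. In the rhesus monkey 87.7% lay in the stroma-like cells, 58.0% of all cells. TET1 was detected in 14.04% of baboon stroma-like cells (median depth 1672 UMIs) and 2.23% of Sertoli-like cells (2360 UMIs), and after thinning to 1000 UMIs in 8.65% and 0.621%.

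**Figure D5:**
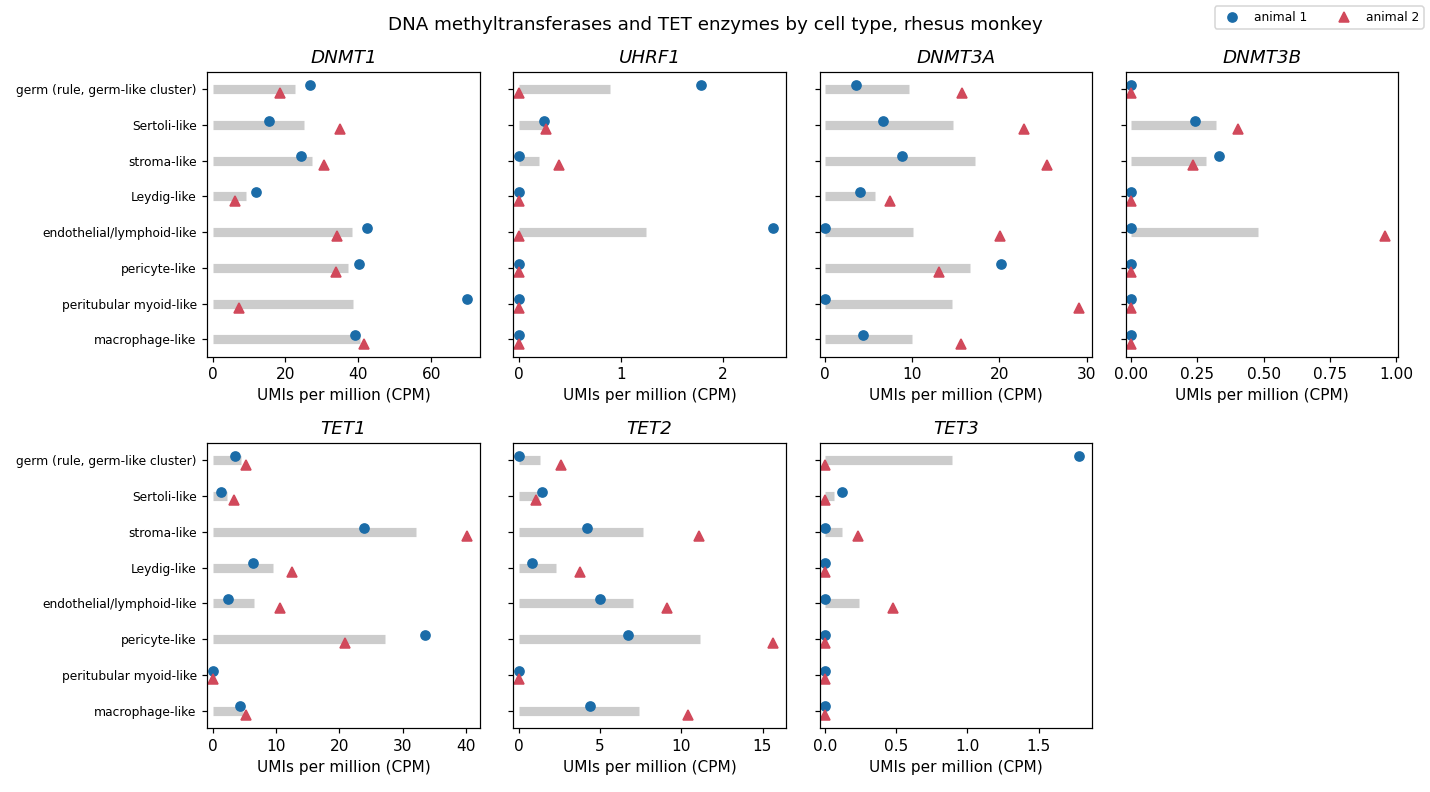
Level of the 7 listed genes in the rhesus monkey (x axis, CPM) in each class of cells (y axis). Points are the 2 animals and grey bars their mean. TET1 stands at 23.9 and 40.1 CPM in stroma-like cells and at 1.33 and 3.35 CPM in Sertoli-like cells.

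TET1 was lower in the rhesus rule cells than in all remaining cells. The remaining cells included 259 cells of the germ-like cluster with fewer than 2 rule transcripts. The rule cells had 2, 1 and 2 UMIs (3.03, 3.77 and 15.2 CPM) and the other cells 12.3, 22.9 and 25.3 CPM. The libraries overlapped through library B of animal 2, whose germ cells numbered 8. The log2 fold change was -2.34 (SE 0.69, adjusted p = 0.0380 in edgeR, lower in 2 of 2 animals). It was the only one of the 4 members tested to pass. Of 13046 genes 22.1% passed, 1424 higher and 1459 lower, with a median of -0.16. A call on 1 of 4 members is near that share over all genes. The call was lost without library A of rhesus animal 2 (-2.15, adjusted p = 0.104) and with at least 2000 UMIs per cell (-1.56, adjusted p = 0.143), and with the animal as a block 4331 genes passed in place of 2883.

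The other cells of the rhesus monkey were mostly stroma-like. The rule cells of animals 1 and 2 stood at 3.03 and 7.56 CPM, from 2 and 3 UMIs, and Sertoli-like cells at 1.33 and 3.35 CPM. Free RNA of the 3 rhesus libraries held 3.82, 4.53 and 9.27 CPM of TET1. With 2 and 3 UMIs in the rule cells of the animals, no order of germ and Sertoli-like cells is read from these values. In the baboon the germ-like rule cells had 14.01, 12.6 and 5.10 CPM of TET1, and the difference over all rule cells was -1.20 (SE 0.63, adjusted p = 0.562 in edgeR). It was higher than in other cells in animal 1 (9.90 against 7.06 CPM) and lower in animal 2 (6.30 against 23.4 CPM).

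TET2 (3:83756745-83888519 in the baboon, 5:103636034-103768093 in the rhesus monkey) was more even than TET1 between stroma-like and Sertoli-like cells of the baboon. Baboon stroma-like cells had 21.03, 24.3 and 32.6 CPM and Sertoli-like cells 12.8, 10.98 and 18.1 CPM, a ratio of 1.83 in animal 1 and 1.80 in animal 2. Free RNA held 11.5, 11.1 and 10.8 CPM, close to the Sertoli-like cells of animal 1. The small classes of vessel and blood cells had the highest levels, from 33.4 to 54.2 CPM per animal in endothelial-like, pericyte/peritubular myoid-like and lymphoid/macrophage-like cells, the last from 12 UMIs. In the rhesus monkey the ratio of stroma-like to Sertoli-like cells was 2.89 in animal 1 and 10.3 in animal 2. Germ and other cells differed by -0.46 (SE 0.51, adjusted p = 0.878 in edgeR) in the baboon and by -2.80 (SE 1.34, adjusted p = 0.162) in the rhesus monkey, where germ cells had 1 UMI. Restricted to the rule cells in the germ-like cluster, the baboon difference was -0.95 (SE 0.55, adjusted p = 0.221 in edgeR).

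TET3 (14:74225869-74350153 in the baboon, 13:34718928-34844470 in the rhesus monkey) stood at 10.9, 18.8 and 11.9 CPM in the germ-like rule cells of the baboon. Sertoli-like cells had 2.84, 2.84 and 6.28 CPM and stroma-like cells 2.74, 1.62 and 2.63 CPM. The germ-like libraries lay above both types. Per animal they stood at 13.5 and 11.9 CPM, between the values of lymphoid/macrophage-like cells (10.8 and 15.8 CPM, from 4 UMIs). Over all rule cells the difference was 0.53 (SE 0.64, adjusted p = 0.892 in edgeR). Only 6 TET3 UMIs were counted in the rhesus monkey.

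Genes that work with the family were described from 7 lists by role. In the baboon rule cells, 457 of the 626 of which lay outside the germ-like cluster, 6 of 7 genes of piRNA-directed methylation rose and none fell, where 3.16% of all genes passed. Their median was 5.03, against -0.10 over all genes. The largest differences were in PIWIL4 (6.38, SE 0.87, adjusted p = 0.0171 in edgeR), MORC1 (6.37), an ATPase that silences transposons in male germ cells, SPOCD1 (5.27), which links PIWIL4 to the methylation machinery in mice, and MOV10L1 (5.03), a helicase of piRNA production. PIWIL2, which also rose, is among the germ cell markers used to name the clusters. Rule cells of both species were chosen by germ cell transcripts, so a rise of other germ cell genes follows in part from that choice. In the list of imprint protection and chromatin cues, 1 of 6 tested genes rose, CTCFL (6.30, SE 1.22, adjusted p = 0.0352 in edgeR), the testis-specific relative of the insulator protein CTCF. None of the 8 maintenance partners (median 0.74), 6 methyl-CpG readers (-0.40), 10 genes of base excision and demethylation (-0.35), 8 of methyl donor supply (-0.21) and 5 TET partners (-0.30) passed.

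In rhesus germ cells more of these genes passed, as 22.1% of all genes did. Of the 8 maintenance partners 3 rose and none fell (median 0.71): HELLS (2.30), a chromatin remodeler needed for methylation, its activator CDCA7 (2.27), and DMAP1 (1.66), which binds DNMT1. Of the 10 genes of base excision and demethylation 1 rose and 5 fell (median -1.06), the largest being GADD45B (-2.49), NEIL1 (-2.00), GADD45G (-1.97) and GADD45A (-1.85). The GADD45 genes are stress-induced as well. The histone demethylases KDM1B (2.87) and KDM1A (1.74), which clear a mark that blocks new methylation, rose among 5 genes of imprint protection and chromatin cues. PIWIL2 (4.89) and SPOCD1 (4.34) rose among 3 tested of 6 listed genes of piRNA-directed methylation (median 4.34). Rare genes could pass the filter on low counts through the germ cell sums where they are high. The median of those tested follows in part from that. The reader ZBTB4 (-2.61), AHCYL1 of the methyl donor list (-2.10), and IDH1 (-1.48), which makes the TET cosubstrate 2-oxoglutarate, fell. They stood among 7, 8 and 5 tested genes with medians of -0.86, -0.45 and -0.84.

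Between cycling and other somatic cells, the maintenance partner HELLS rose in the rhesus monkey (2.70, SE 0.41, adjusted p = 0.0201 in edgeR), the only one of the related genes to pass in either species. The 8 maintenance partners had medians of 0.91 in the rhesus monkey and 0.58 in the baboon. In the baboon HELLS differed by 1.15 and PCNA, the replication clamp, by 1.62 without passing. Between the 2 states of baboon germ cells none of the related genes passed. The 6 genes of piRNA-directed methylation other than PIWIL4, which chose the cells, had a median of 1.62 there, against -0.06 over all genes.

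The genes whose levels ran most like those of a member over the sums per animal and cell type, on a log2 scale of CPM with 5 added, were TMEFF1, TH and ASXL3 for DNMT3L (Pearson r = 0.994, 0.993 and 0.989 over 14 sums). For TET1 they were C1QTNF7, LOC101014578 and HAAO in the baboon (0.972, 0.965 and 0.956 over 14 sums) and HOXD8, LRRC17 and HPGD in the rhesus monkey (0.912, 0.867 and 0.852 over 15 sums). For DNMT1 they were SLC30A9, MRS2 and ANGEL2 in the baboon (0.928 to 0.923) and VPS37A, CERK and UBE2J1 in the rhesus monkey (0.850 to 0.821). For DNMT3A they were CARMIL3, SNCAIP and LOC103875636 in the baboon (0.824 to 0.812) and THAP5, RPAP2 and DICER1 in the rhesus monkey (0.871 to 0.852). For DNMT3B they were LOC103888138, CHMP4C and ZNF599 in the baboon (0.894 to 0.885). For TET2 they were UBE2A, ZFP36 and MDP1 in the baboon (0.939 to 0.884) and LASP1, SLC35E2 and STK38 in the rhesus monkey (0.854 to 0.815), and for TET3 in the baboon DUSP5, SLC15A4 and PREX1 (0.941 to 0.904). The sums of 1 animal share their libraries, and the r values are a description. DNMT3L was high in the germ-like sums alone, so its r values rest mainly on the gap between these and the other sums.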

How the data were processed

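Single-cell 3′ RNA-seq libraries were made from 2 baboons and 2 rhesus monkeys. Reads were aligned by the authors to Panubis1.0 in the baboon and to Mmul_10 in the rhesus monkey, with Cell Ranger 3.1.0 per the file headers, and raw UMI counts of every possible barcode were deposited, neither normalized nor restricted to cells. The submitters' processing notes also name Seurat 3.2.3. Cells were called from the deposited counts by a UMI cutoff and by comparison with free RNA in 10000 simulations (at least 500 UMIs, adjusted p of at most 0.01), and those with at least 200 genes and 1000 UMIs were used. Doublets were marked and kept (1175 baboon and 1317 rhesus cells). Cells were clustered in Seurat 5.3.0 (sctransform 0.4.2, integration of 3000 features less the members, germ rule, cell cycle and related genes, 30 components, resolution 0.5), and clusters were named from lists of markers. Counts were summed per animal and class and tested with edgeR 4.0.16 (R 4.3.3, TMM, filterByExpr, Benjamini-Hochberg, called at 0.05), with DESeq2 1.42.0 as an alternative. The genes used to choose cells were not tested. Intervals of shares are exact Clopper-Pearson at 95%, and floors are 3 counts. Scripts were tested on simulated data.

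The members, lists and comparisons were chosen with earlier results of these data known. The named genes were the members, in each list up to 4 genes past the threshold with the largest absolute log2 fold change, and for members with at least 100 UMIs the 3 genes of highest correlation. Each animal gave 2 sums to a comparison, and the main tests left these unpaired. Only the fits with a block paired them. In the block fit of baboon germ cells the p-values took the spread from all genes together, not from each gene alone. The deviations of an animal in the classes compared correlated at 0.348 and 0.209 (germ against other cells, baboon and rhesus). For cycling against other somatic cells they correlated at 0.400 and 0.407, and for the states of baboon germ cells at 0.736. The main p-values do not take this correlation into account. Alternatives changed the test, filter, block, unit of replication (libraries), minimum UMIs, doublets, markers and libraries used. No sequences were printed. One related gene is not reported here.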

Additional observations from a re-analysis of the deposited data

How the results depend on the processing

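Of 280 alternative values of the members' log2 fold changes, 246 were counted as the same. For tested values this means the same direction and side of the threshold. Values with fewer than 2 sums on a side had no test. They were counted as the same when within the SD of the 2 animals from the main value, so that their sign could differ. Counts of calls moved in 28 of 47 alternatives, and the share of germ cells with a UMI of a member moved in 10 of 15 cases when cells were not thinned. For baboon germ cells, 540 calls became 1363 with DESeq2, 1724 without a filter, 1716 with the animal as a replicate block, 1498 with libraries as samples, 333 at 2000 UMIs, 2714 with 3 markers, 6098 within the germ-like cluster and 124 to 176 with 1 library left out. Rhesus germ cells had 4331 with the block, 4544 with libraries as samples and 1817 to 2493 with 1 library left out. For cycling baboon cells, 47 calls became 112 with DESeq2, 192 without a filter, 327 with the block, 77 with libraries, 91 without doublets and 146 with 3 cycle genes. For cycling rhesus cells, 93 became 198, 360, 629 and 247 under the first 4 of these and 151 with 3 cycle genes. For the states of baboon germ cells, 0 became 5 with DESeq2, 37 without a filter, 186 with the block, 1 with 3 markers and 2 within the germ-like cluster. The cause was not tested. A rule of 3 markers left 163 baboon and 42 rhesus germ cells.

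Small differences changed sign without passing. DNMT3A was at 0.070 at 2000 UMIs and at -0.22 to 0.051 with 1 library left out in baboon germ cells. It was at -0.035 without doublets and at -0.32 to 0.56 with 1 library left out in cycling baboon cells, and at 0.11 with libraries as samples and at -0.18 to 0.13 with 1 library left out between the states. For cycling rhesus cells at 2000 UMIs DNMT3A was at 0.19 and TET1 at 0.093. UHRF1 of cycling baboon cells passed also without a filter, with libraries as samples, without doublets and with 3 cycle genes, and DNMT3L between the states without a filter. The block changed no call on a member other than those given with the results. Leaving out the lone library of an animal left 1 animal and gave values with no test. With 2 animals and few UMIs per member, the SEs given set the size of difference that could be shown at this depth.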
